A study of Mus musculus with 30 samples.

Results

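The genes described here are 10 integrin and laminin genes of the mouse, followed by their transcripts over dose and time of cannabidiol (CBD) in a hypothalamic cell line. They were taken by their symbols from the 56941 genes in each count table. There are 6 receptor subunits (*Itga3*, *Itga5*, *Itga6*, *Itgav*, *Itgb1*, *Itgb5*) and 4 laminin chains (*Lama4*, *Lama5*, *Lamb1*, *Lamc1*). The cells were mHypoA-2/12, an immortalized line from the adult mouse hypothalamus. It is 1 clonal line, so it has no surrounding tissue. Cells received CBD at 0.325, 0.75, 1.5 or 3 µM, or the vehicle alone, for 6 h or 24 h. DMSO at 0.1% was in the medium of every group, CBD groups included. Each of the 10 groups had 3 libraries of 3′ mRNA-Seq, which reads the 3′ end of each transcript. The libraries are named A1 to A30 as the authors named them. At 6 h, A1 to A3 were vehicle, A4 to A6 were 3 µM, A7 to A9 were 1.5 µM, A10 to A12 were 0.75 µM and A13 to A15 were 0.325 µM. At 24 h, A16 to A18 were 3 µM, A19 to A21 were 1.5 µM, A22 to A24 were 0.75 µM, A25 to A27 were 0.325 µM and A28 to A30 were vehicle.

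Integrins are adhesion receptors of the cell surface, each a pair of an alpha and a beta subunit, that join the extracellular matrix to actin. Laminins are secreted trimers of an alpha, a beta and a gamma chain that build basement membranes. The product of *Itgb1* is the beta subunit that most alpha subunits share. With it, the products of *Itga3* and *Itga6* bind laminins and that of *Itga5* binds fibronectin, whereas the products of *Itgav* and *Itgb5* together bind vitronectin. *Lama4* and *Lama5* encode alpha chains, *Lamb1* a beta chain and *Lamc1* the gamma chain of most laminins.

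The libraries held between 1839621 and 4420675 reads on genes, so that 1 read was worth between 0.226 and 0.544 CPM (reads on a gene scaled to those of its library). Of 84273080 reads on genes in all libraries, 153167 fell on the 10 genes, and the share per library ran from 0.115% in A16 to 0.211%. Among the markers of the labelled cell type, *Snap25*, a protein of synaptic vesicle release, had 4 reads in all 30 libraries and *Rbfox3*, a marker of mature neurons, had 47, whereas the neuronal tubulin *Tubb3* had 4123 and the enolase *Eno2* 3131. *Map2*, *Nefl* and *Stmn2* had between 1314 and 2006 reads, and *Syt1* had 159. The 8 neuronal markers summed to between 114 and 170 CPM per library and the 7 mesenchymal markers to between 7693 and 9938 CPM. *Aqp4* and *Olig2* had no reads among the 6 glial markers, which summed to at most 20.04 CPM, and the 4 microglial markers summed to at most 54.5 CPM, with 1159 reads for *Cx3cr1*, 943 for *Csf1r*, 58 for *Ptprc* and 2 for *Aif1*. The 4 endothelial markers summed to between 0 and 3.80 CPM. Library A16 stood apart at 3 µM and 24 h for several of the genes below, and the calls that depend on it are given with and without it.

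Levels are CPM after TMM normalization. Tests are the quasi-likelihood F-test of edgeR, with the false discovery rate (FDR) adjusted over every tested gene by Benjamini-Hochberg, and a gene was called altered at an FDR below 0.1. All 10 genes passed the filter on low counts in every fit. Nothing in the labels says that the 3 libraries of a group came from separate cultures, so the p-values measure the spread between these libraries, which may be technical. In RNA from whole cultures, fewer cells of a kind and less RNA per cell cannot be told apart. Comparisons of several doses with the vehicle share the same 3 vehicle libraries.

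The start sites of *Itgb1* and *Itgb5* are shown because both beta subunits were called at 3 µM against the lower doses after 24 h, as described further on. RefSeq start sites on GRCm38.p6 were at hand for 7 of the 10 genes, 8 sites in all. The 250 bases upstream were searched on both strands for the GC box (GGGCGG or CCGCCC), the CCAAT box (CCAAT or ATTGG), the AP-1 site (TGANTCA) and the TATA box (TATAAA or TTTATA), none of which contains another. GC boxes are in capitals in the windows of *Itgb1* (chr8:128685404-128685653, + strand) and *Itgb5* (chr16:33829415-33829664, + strand).
Itgb1: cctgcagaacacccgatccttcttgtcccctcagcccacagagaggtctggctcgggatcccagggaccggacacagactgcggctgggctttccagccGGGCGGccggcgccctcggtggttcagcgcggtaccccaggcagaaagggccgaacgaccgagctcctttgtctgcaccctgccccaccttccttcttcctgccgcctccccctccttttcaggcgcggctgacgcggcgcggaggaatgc
Itgb5: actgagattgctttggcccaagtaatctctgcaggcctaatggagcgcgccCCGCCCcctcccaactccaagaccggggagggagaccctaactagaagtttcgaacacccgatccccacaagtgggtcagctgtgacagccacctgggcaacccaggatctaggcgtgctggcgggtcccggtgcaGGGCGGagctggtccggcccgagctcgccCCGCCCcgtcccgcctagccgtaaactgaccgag
The window of *Itgb1* held 1 GC box and that of *Itgb5* held 3, at a GC content of 68% and 65.2%, against a median of 52.4% over 32851 windows of the same length. A GC box occurred in 32.7% of all those windows, a CCAAT box in 33.8%, an AP-1 site in 6.75% and a TATA box in 12.4%. No AP-1 site or TATA box was found in the 8 windows of the integrin and laminin genes. These matches are letters in a window and say nothing of a factor bound there.

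All 10 transcripts were detected in every library. *Itgb1* (ENSMUSG00000025809, chr8:128685654-128733200 in GRCm38) had 77635 reads in the 30 libraries and a median of 938 CPM. *Itgb5* (ENSMUSG00000022817, chr16:33829665-33949338) had a median of 289 CPM and *Lamb1* (ENSMUSG00000002900, chr12:31265234-31329644) of 278 CPM. The median was 103 CPM for *Itgav*, 64.9 CPM for *Lamc1* and 62.1 CPM for *Itga6*, and it lay between 15.6 and 33.8 CPM for *Itga3*, *Itga5*, *Lama5* and *Lama4*. A 3′ library yields about 1 fragment per transcript, yet these levels also depend on how well each 3′ end is annotated, so no order between genes is drawn from them.

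**Figure D1:**
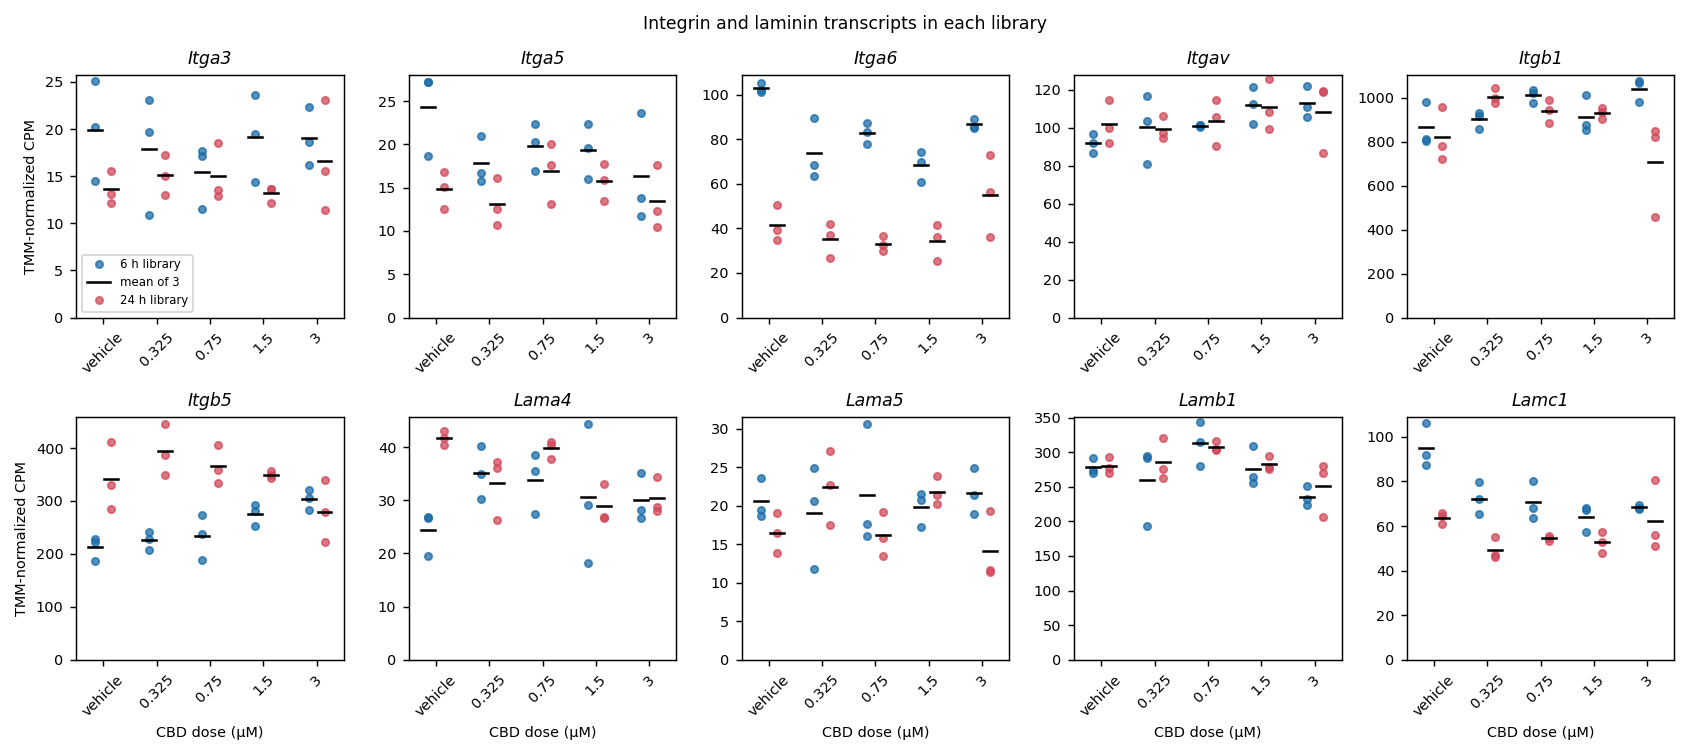
Each point is 1 library (blue, 6 h; red, 24 h) and each black line the mean of 3 libraries; the vertical axis is the TMM-normalized CPM of the gene named above the panel and the horizontal axis the CBD dose in µM. The 3 vehicle libraries of 6 h lie above all 12 CBD libraries of 6 h for *Itga6* and *Lamc1*, and 1 library of 3 µM at 24 h, A16, lies at 456 CPM for *Itgb1*.

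The first question was whether CBD altered these transcripts after 6 h. With the 4 doses in 1 contrast, *Lamc1* fell and the other 9 genes were not called, while 90 of all 12012 genes tested, 0.749%, were called. *Lamc1* (ENSMUSG00000026478, chr1:153218922-153332786, - strand) was at 91.8, 87.5 and 106 CPM in the vehicle libraries. In the 12 CBD libraries it was between 57.4 and 80.3 CPM, with a median of 68.0 CPM. All CBD libraries were thus below all vehicle libraries. CBD against vehicle gave a log2 fold change of −0.48 (SE 0.12, edgeR FDR = 0.0744). The gene span of *Lamc1* also holds *Gm38009* on the same strand and the pseudogene *Gm8818* on the other. The strand setting of the counting is not stated in the sources used here. The call was lost, at an edgeR FDR between 0.113 and 0.193, when any 1 of 9 of the 15 libraries (A1 to A6, A9, A10 or A12) was left out, with log2 fold changes between −0.53 and −0.38. It was also lost with no filter on low counts (FDR 0.106), and held with DESeq2 (FDR 0.0379).

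*Itga6*, the laminin receptor subunit (ENSMUSG00000027111, chr2:71745616-71858416), was lower in the CBD libraries of 6 h but was not called. Its vehicle libraries were at 105, 101 and 102 CPM. The 12 CBD libraries lay between 60.8 and 89.5 CPM, with a median of 80.7 CPM, again without overlap, and the fitted log2 fold change was −0.41 (SE 0.12, edgeR FDR = 0.152). Its span also holds 4 annotated noncoding genes, 2 of them on the other strand. Once the fit included the share of reads outside genes, the FDR was 0.0369. That share was 21.4%, 20.8% and 17.9% in the vehicle libraries A1, A2 and A3. In the CBD libraries of 6 h it lay between 17.7% and 21.1%. Of all 12790 genes in the 30-library fit, 182, or 1.42%, had 12 CBD libraries of 6 h on 1 side of the 3 vehicle libraries. Here 2 of 10 did, *Itga6* and *Lamc1*, both with CBD lower.

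By single dose at 6 h, 0 of the 10 genes were called by edgeR at any dose. The background was 0.2%, 0.0749%, 0.0999% and 0.05% of all genes called, from the lowest to the highest dose. An unadjusted p below 0.05 was seen for 2, 2, 3 and 4 of the 10 genes in that order, and for 8.8%, 7.79%, 7.91% and 7.26% of all genes. DESeq2 called 2 genes at 1.5 µM, *Itga6* (FDR 0.0543) and *Lamc1* (FDR 0.0722), and 1 at 3 µM, *Itgb5* (FDR 0.0994). The background above is that of edgeR. Over all genes DESeq2 called no more than 154 at 1.5 µM and 92 at 3 µM. These were the highest counts of any alternative that kept all libraries of the groups compared. *Lamc1* was below the vehicle by a similar amount at each dose, with log2 fold changes of −0.41, −0.44, −0.57 and −0.48 from the lowest to the highest dose and an SE of 0.15 at each. For *Itga6* they were −0.48, −0.31, −0.59 and −0.25 in the same order.

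*Itgb5*, the partner of *Itgav* in the vitronectin receptor, had its highest values of 6 h at the highest dose. The libraries of 3 µM were at 321, 306 and 283 CPM and those of 1.5 µM at 292, 280 and 253 CPM. The vehicle was at 227, 223 and 187 CPM, below both of these doses, which share these 3 vehicle libraries. How many of all genes separate so at a single dose was not counted. The mean was 226 ± 17.9 CPM (SD, n = 3) at 0.325 µM and 233 ± 42.6 CPM (SD, n = 3) at 0.75 µM, both overlapping the vehicle. The log2 fold change against vehicle was 0.52 at 3 µM (SE 0.14, edgeR FDR = 0.271) and 0.37 at 1.5 µM (SE 0.14, edgeR FDR = 0.5). Mesenchymal markers summed to between 9664 and 9938 CPM at 3 µM and between 8517 and 8994 CPM in the vehicle of 6 h, without overlap. At 1.5 µM they summed to between 8773 and 9665 CPM and overlapped the vehicle. The part of these markers in this result was not tested. A slope over log2 dose, chosen after the values were seen, was 0.14 per doubling of the dose (SE 0.04), with an edgeR FDR of 0.996 over all genes.

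The other genes of 6 h were not called. *Itgav* had a log2 fold change of 0.22 (SE 0.12, edgeR FDR = 0.569) with the doses together, and its CBD libraries lay between 80.7 and 122 CPM around the vehicle's 86.6 to 96.8 CPM. *Itgb1* was between 851 and 1074 CPM with CBD and between 804 and 980 CPM with vehicle. *Itga5* had a log2 fold change of −0.43 (SE 0.21, edgeR FDR = 0.486) and *Lama4* of 0.39 (SE 0.21, edgeR FDR = 0.545). *Lamb1*, *Lama5* and *Itga3* had values of −0.05, −0.02 and −0.17, each smaller than its SE. Among the 4 doses at 6 h, 0 of the 10 genes differed in edgeR or DESeq2, and 1 had an unadjusted p below 0.05, *Itgb5*. Over all genes 0 were called by either tool, a background of 0%, and 452 had an unadjusted p below 0.05 in edgeR. The comparison of 3 µM with the 3 lower doses at 6 h also gave 0 calls among the 10 genes in both tools, with 2 at an unadjusted p below 0.05. Its background was 0%, with 624 of all genes at an unadjusted p below 0.05.

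After 24 h, none of the 10 genes was called in edgeR with the 4 doses together, and 1, *Lama4*, had an unadjusted p below 0.05, as did 6.73% of all genes. DESeq2 called 0 of them as well. The background in edgeR was 13 of 12118 genes, or 0.107%. No gene of the 10 had all CBD libraries on 1 side of the vehicle at 24 h, against 0.586% of all genes. By single dose, 0 of 10 were called at 0.325, 0.75, 1.5 or 3 µM in edgeR and in DESeq2. The backgrounds in edgeR were 0.066%, 0.0825%, 0.0413% and 0.00825%. An unadjusted p below 0.05 was seen for 1, 0, 1 and 1 of the 10 genes, from the lowest to the highest dose, and for 8.33%, 7.63%, 7.34% and 9.16% of all genes, so these counts are near the background.

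*Lama4*, an alpha chain of laminins (ENSMUSG00000019846, chr10:38965515-39110188), was at 41.7, 43.1 and 40.4 CPM in the vehicle of 24 h. The CBD libraries lay between 26.3 and 41.0 CPM, with a median of 33.8 CPM, so that 2 CBD libraries of 0.75 µM overlapped the vehicle. In the fit this was a log2 fold change of −0.35 (SE 0.13, edgeR FDR = 0.629). At 6 h the vehicle was at 19.5, 26.7 and 26.9 CPM and the CBD libraries between 18.2 and 44.4 CPM. The change with CBD at 24 h differed from that at 6 h by −0.74 on the log2 scale (SE 0.25, edgeR FDR = 0.371), which did not pass. *Lamc1* at 24 h was at 60.8, 64.3 and 66.0 CPM with vehicle and between 46.1 and 57.5 CPM at the 3 lower doses. The 3 µM libraries were at 55.8, 80.6 and 50.9 CPM, of which A17 was above every vehicle library. Its log2 fold change with the doses together was −0.23 (SE 0.12, edgeR FDR = 0.784).

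For the test of whether the change with CBD differed between 24 h and 6 h, edgeR called 0 of the 10 genes, DESeq2 called 0, and 1, *Lama4*, had an unadjusted p below 0.05, as did 6.52% of all genes. The background of calls in edgeR was 30 of 12790 genes, or 0.235%. The difference was 0.25 for *Lamc1* (SE 0.17, edgeR FDR = 0.843) and 0.30 for *Itga6* (SE 0.21, edgeR FDR = 0.861). The call of *Lamc1* at 6 h and its absence at 24 h therefore do not show that its response differed between the times.

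**Figure D2:**
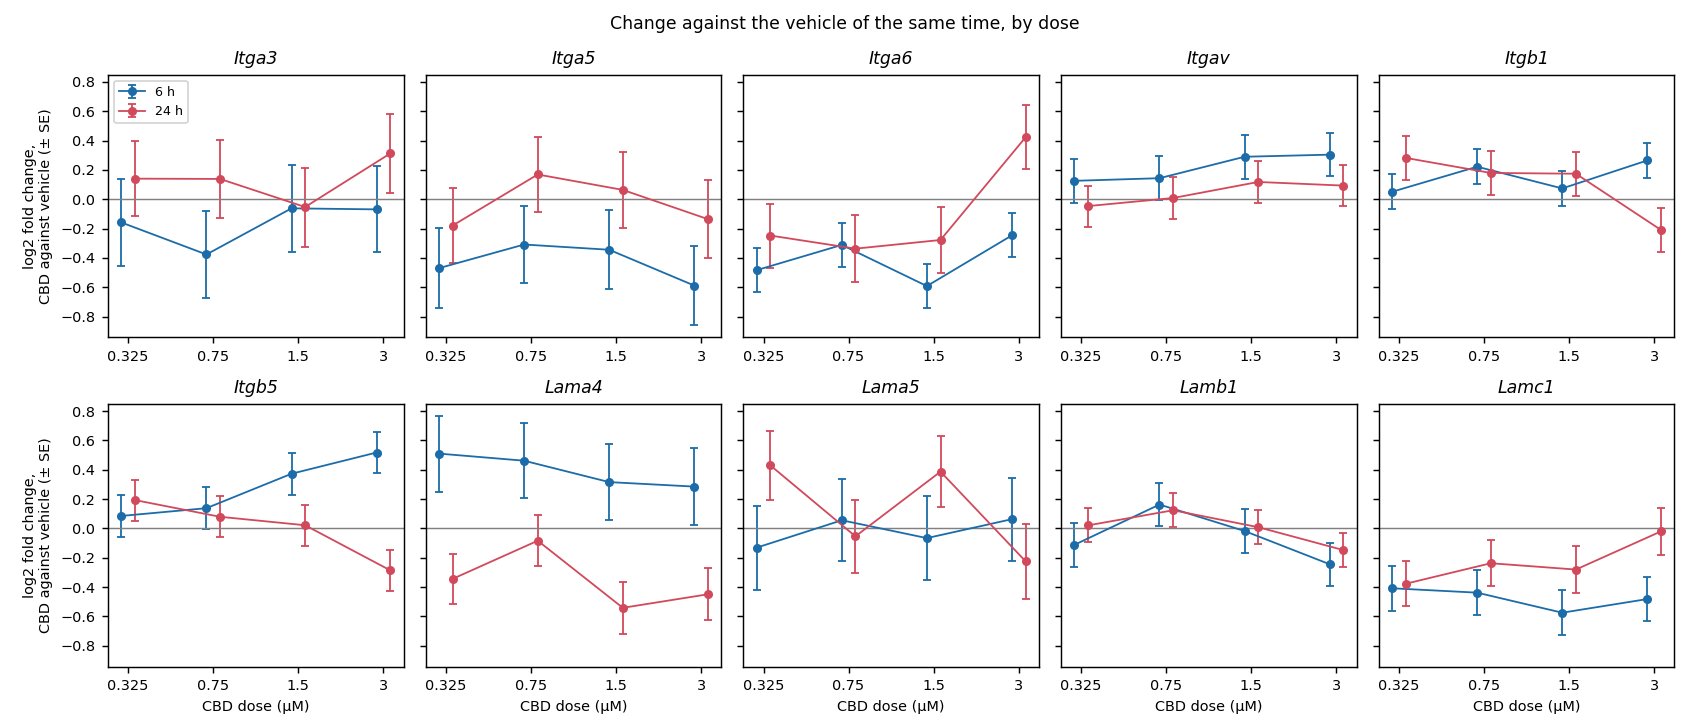
Each panel gives, for 1 gene, the log2 fold change of each CBD dose (horizontal axis, µM) against the 3 vehicle libraries of the same time, with bars of 1 SE from edgeR (blue, 6 h; red, 24 h). *Lamc1* lies below 0 at each dose of 6 h, *Itgb5* reaches 0.52 at 3 µM of 6 h and −0.29 at 3 µM of 24 h, and no single value passed an FDR of 0.1.

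The doses were then compared with one another at 24 h. The contrast of 3 µM with the lower doses was chosen with earlier results of these data known. Its FDRs do not allow for that choice. The 3 µM libraries differed from the 9 libraries of the lower doses in 3 of the 10 genes. *Itga6* was higher at 3 µM than at the lower doses, whereas *Itgb1* and *Itgb5* were lower. None of the 3 was called at 3 µM against the vehicle of 24 h. There the log2 fold change was 0.42 for *Itga6* (edgeR FDR = 0.566) and −0.29 for *Itgb5* (edgeR FDR = 0.545). The background of this comparison was large, 1275 of 12118 genes, or 10.5%, and 68 genes without A16. All 3 calls were lost without 1 library, A16.

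*Itga6* was at 72.8, 36.1 and 56.6 CPM in A16, A17 and A18. The lower doses lay between 25.2 and 42.0 CPM, with a median of 36.0 CPM, and the vehicle was at 39.1, 50.4 and 35.0 CPM. A16 and A18 were above the other 24 h libraries and A17 was among them. The log2 fold change of 3 µM against the lower doses was 0.71 (SE 0.18, edgeR FDR = 0.0217), and 0.44 (SE 0.19, edgeR FDR = 0.344) without A16.

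*Itgb1* was at 456, 847 and 819 CPM at 3 µM, in the order A16, A17 and A18. The lower doses were between 885 and 1042 CPM, so the groups did not overlap, which held for 4.52% of all genes. The vehicle was at 959, 782 and 721 CPM, which spans A17 and A18. For 3 µM against the lower doses the log2 fold change was −0.42 (SE 0.13, edgeR FDR = 0.0448), and −0.19 (SE 0.10, edgeR FDR = 0.437) without A16. Against the vehicle, 3 µM had a log2 fold change of −0.21 (SE 0.15, edgeR FDR = 0.701).

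*Itgb5* was at 222, 339 and 279 CPM at 3 µM and between 333 and 446 CPM at the lower doses. The vehicle was at 411, 331 and 285 CPM and overlapped both. The log2 fold change of 3 µM against the lower doses was −0.38 (SE 0.12, edgeR FDR = 0.0512). It was −0.25 (SE 0.12, edgeR FDR = 0.395) without A16 and −0.39 (SE 0.14, edgeR FDR = 0.15) without A18. Over log2 dose at 24 h the slope of *Itgb5* was −0.14 per doubling (SE 0.04, edgeR FDR = 0.0931), and −0.10 (SE 0.04, edgeR FDR = 0.337) without A16. The slope of 6 h was of the other sign, and the difference between the slopes was not tested.

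*Lama5*, an alpha chain, had a log2 fold change of −0.48 (SE 0.21, edgeR FDR = 0.19) at 3 µM against the lower doses. It passed only when A17 was left out, at −0.77 (SE 0.25, edgeR FDR = 0.0406), and was −0.37 (SE 0.25, edgeR FDR = 0.577) without A16. *Lamc1* was at 0.28 (SE 0.13, edgeR FDR = 0.21) and *Lamb1* at −0.20 (SE 0.10, edgeR FDR = 0.238), while *Itga3*, *Itga5*, *Itgav* and *Lama4* had FDRs of 0.568 to 0.791. In the test for any difference among the 4 doses at 24 h, edgeR called 0 of the 10 genes, beside 1.93% of all genes. In edgeR an unadjusted p below 0.05 was seen for 4 of the 10 genes and for 14.5% of all genes. DESeq2 called *Itga6* (FDR 0.0703). Over all genes DESeq2 called no more than 783, the highest count of any alternative that kept all libraries.

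The share of reads outside genes moved with the same groups. It was 21.4 ± 0.487% (SD, n = 3) at 3 µM and 21.4 ± 0.714% (SD, n = 3) in the vehicle of 24 h, and the means of the 3 lower doses lay between 19.4% and 19.7%. By library it ran from 20.8% to 21.7% at 3 µM and from 18.7% to 20.4% at the lower doses, without overlap. A fit with this share as a covariate can therefore hardly separate it from dose in this comparison, here and for the lists below. With the covariate, 0 of the 10 genes were called at 3 µM against the lower doses. The log2 fold change was then 1.33 for *Itga6* (SE 0.32, edgeR FDR = 0.106), −0.54 for *Itgb1* (SE 0.25, edgeR FDR = 0.405) and −0.38 for *Itgb5* (SE 0.23, edgeR FDR = 0.535). Mesenchymal markers summed to between 7693 and 8075 CPM at 3 µM and between 7869 and 8841 CPM at the lower doses. The part of either in these results was not tested.

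**Figure D3:**
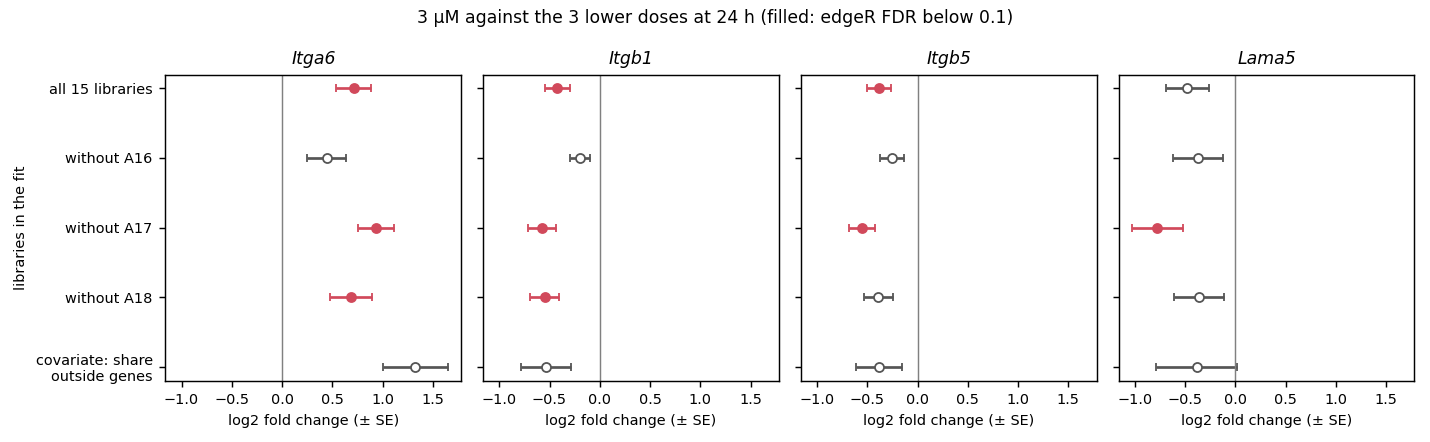
Log2 fold changes of 3 µM against the 3 lower doses at 24 h (horizontal axis, bars of 1 SE from edgeR) for *Itga6*, *Itgb1*, *Itgb5* and *Lama5*, with all 15 libraries, without each library of 3 µM in turn, and with the percentage of reads that lay outside genes as a covariate; filled points passed an FDR of 0.1. Without A16 the values move towards 0 and none is filled.

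Without CBD, 24 h and 6 h of culture differed in 5 of the 10 genes, 2 higher and 3 lower at 24 h. In this comparison of the vehicle libraries, 26.7% of all 12790 genes were called. The largest of the 5 differences was that of *Itga6*, at 39.1, 50.4 and 35.0 CPM after 24 h against 105, 101 and 102 CPM after 6 h. All 24 h libraries were below all 6 h libraries, and the log2 fold change was −1.31 (SE 0.19, edgeR FDR = 8.76e-06). *Lamc1* fell by 0.59 on the log2 scale (SE 0.15, edgeR FDR = 0.00462), from 95.1 ± 9.73 CPM to 63.7 ± 2.65 CPM (SD, n = 3).

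*Itga5*, the fibronectin receptor subunit (ENSMUSG00000000555, chr15:103344286-103366763), was at 27.2, 18.7 and 27.2 CPM after 6 h and 15.1, 12.6 and 16.8 CPM after 24 h. Its log2 fold change was −0.72 (SE 0.26, edgeR FDR = 0.0423). The call was lost, at an FDR between 0.104 and 0.17, without A1, A3, A28 or A29. *Itgb5* rose from 227, 223 and 187 CPM to 411, 331 and 285 CPM, a log2 fold change of 0.69 (SE 0.15, edgeR FDR = 0.000877). *Lama4* rose from 19.5, 26.7 and 26.9 CPM to 41.7, 43.1 and 40.4 CPM, a log2 fold change of 0.76 (SE 0.22, edgeR FDR = 0.012). The libraries of 24 h and 6 h did not overlap for any of the 5 genes, which was so for 31.8% of all genes. The calls of *Itga6*, *Lamc1*, *Itgb5* and *Lama4* held with every library left out in turn.

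The changes of *Itga6* and *Itgb5* with time were of opposite sign, and the shared *Itgb1* had a log2 fold change of −0.08 (SE 0.14, edgeR FDR = 0.749). Among the laminin chains, *Lamb1* was at 279 ± 11.3 CPM after 6 h and 280 ± 11.3 CPM after 24 h (SD, n = 3) while *Lamc1* and *Lama4* were called in opposite directions. *Itga3*, *Itgav* and *Lama5* had log2 fold changes of −0.56, 0.16 and −0.33, with edgeR FDRs of 0.155, 0.485 and 0.418. *Itga3* passed only without A1 (FDR 0.0871).

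**Figure D4:**
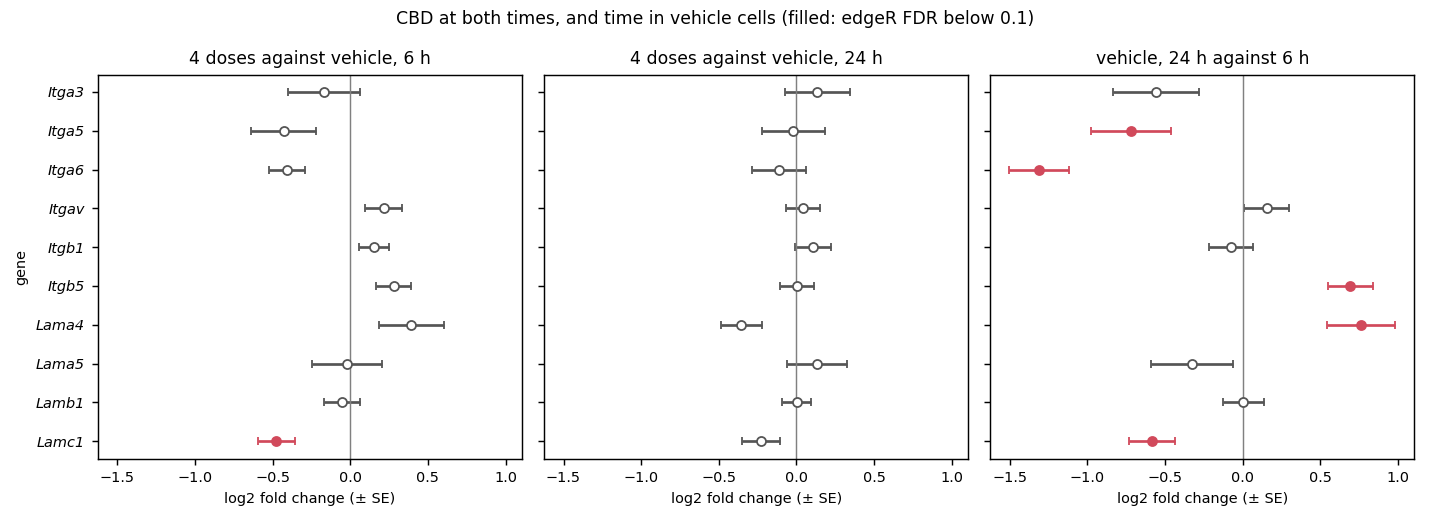
Log2 fold changes (horizontal axis, bars of 1 SE from edgeR) of the 10 genes (vertical axis) for the 4 CBD doses together against vehicle at 6 h and at 24 h, and for vehicle at 24 h against vehicle at 6 h; filled points passed an FDR of 0.1. Only *Lamc1* is filled at 6 h, none at 24 h, and *Itga5*, *Itga6*, *Itgb5*, *Lama4* and *Lamc1* are filled for time.

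Of the other genes of these families, 10 of 20 further integrin subunits and 3 of 7 further laminin chains passed the filter on low counts. Between the vehicle groups, 4 of the 10 integrins rose and 1 fell, beside the 26.7% of all genes called. *Itga1*, a collagen receptor subunit, was the largest, from 9.45, 6.94 and 4.44 CPM to 32.6, 26.5 and 25.2 CPM (log2 fold change 2.10, SE 0.30, edgeR FDR = 5.05e-06). *Itga4* (1.84), *Itga2b* (1.10) and *Itga8* (0.89) also rose, with edgeR FDRs of 0.0763, 0.0477 and 0.095. These are low levels. The vehicle mean of 6 h was 1.09 CPM for *Itga4*, 5.47 CPM for *Itga2b* and 4.55 CPM for *Itga8*. At 24 h it was 4.01, 12.0 and 8.57 CPM in the same order. In A1, a vehicle library of 6 h, 1 read was worth 0.544 CPM. These 3 calls were each lost when 1 of several vehicle libraries was left out, namely A1, A28 or A30 for all of them, A3 for *Itga4* and *Itga8*, and A2 for *Itga4* (FDRs of 0.101 to 0.26). All 3 were also lost with the share outside genes as a covariate (FDRs of 0.227 for *Itga2b*, 0.201 for *Itga4* and 0.133 for *Itga8*), and those of *Itga4* (FDR 0.11) and *Itga8* (FDR 0.192) with no filter on low counts. *Itgb7*, a beta subunit known from leukocytes, fell by 0.93 (SE 0.24, edgeR FDR = 0.00475). *Lamb2*, the other widely used laminin beta chain, rose from 111, 109 and 69.1 CPM to 200, 214.5 and 265 CPM. Its log2 fold change was 1.25 (SE 0.16, edgeR FDR = 1.29e-06). *Lama2* was not called in any comparison.

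With CBD, 1 of these 13 genes was called at 6 h, where 0.749% of all genes were called with the 4 doses together. *Itga1* rose with the 4 doses together, to between 9.15 and 27.9 CPM, with a log2 fold change of 1.36 (SE 0.31, edgeR FDR = 0.0493). The lowest CBD library overlapped the highest vehicle library, and the call was lost without A2 (FDR 0.157) or A3 (FDR 0.144). Its span overlaps *Pelo* and *Gm49395* on the same strand and *Gm10734* on the other. At 3 µM against the lower doses of 24 h, 1 of the 13 was called, beside 10.5% of all genes. *Itgb7* was at 112, 45.7 and 60.5 CPM in A16, A17 and A18 and between 30.4 and 55.9 CPM at the lower doses (log2 fold change 0.68, edgeR FDR = 0.0406), and 0.22 without A16 (FDR 0.697). With the covariate its value was 1.12 (FDR 0.227).

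Among the 13 partners of laminins in the basement membrane and other matrix receptors, 3 rose and 1 fell between the vehicle groups. Of all genes, 26.7% were called in that comparison, so this count is near the background. *Agrn*, a heparan sulfate proteoglycan, rose by a log2 fold change of 1.46 (SE 0.30, edgeR FDR = 0.000591), *Hspg2*, which encodes perlecan, by 0.55 (edgeR FDR = 0.0124) and *Fn1*, fibronectin, by 0.31 (edgeR FDR = 0.0795). *Sdc4*, a syndecan of adhesion sites, fell by 0.74 (edgeR FDR = 0.0124). Left out singly, A28 ended the call of *Hspg2* (FDR 0.156), A3 that of *Sdc4* (FDR 0.165), and A1, A2, A28 or A30 that of *Fn1* (FDRs of 0.11 to 0.236), which the covariate also ended (0.31, FDR 0.109). *Col4a1* and *Dag1*, a type IV collagen chain and dystroglycan, were not called in any comparison. At 24 h, *Sdc1* was lower at 3 µM than at the lower doses (log2 fold change −0.51, edgeR FDR = 0.0686), a call lost without A16 (−0.21, FDR 0.561), with the covariate (−0.65, FDR 0.447) and also without A19, A24 or A26 (FDRs of 0.102 to 0.109). No gene of this list was called for CBD against vehicle.

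Of the 30 cytoplasmic proteins of integrin adhesions, 27 were tested and 11 were called between the vehicle groups, 5 higher and 6 lower, beside the 26.7% of all genes. With the covariate 8 were called, 4 in each direction. *Tns2*, a tensin, rose by a log2 fold change of 1.21 and *Zyx*, zyxin, by 0.51, with edgeR FDRs of 0.00329 and 0.00405. *Actn1*, an alpha-actinin, fell by 0.52, *Parvb*, a parvin, by 0.90 and the adaptor *Crk* by 0.73, with edgeR FDRs of 0.000853, 0.00353 and 0.00289. *Fermt2*, a kindlin that activates integrins, fell by 0.90 (edgeR FDR = 0.00552), but by 0.25 (FDR 0.475) without A3, in which it was at 131 CPM against 47.3 and 56.0 CPM in A1 and A2, and by 0.44 (FDR 0.146) with the covariate. *Flna*, filamin A, was not called in any comparison.

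At 3 µM against the lower doses of 24 h, 8 of the 27 were called, 2 higher and 6 lower, beside the 10.5% of all genes. Without A16, or with the share outside genes as a covariate, 0 of the 27 were called, and over all genes 68 or 30. *Crk* was at 36.4, 37.3 and 36.4 CPM at 3 µM and between 21.2 and 30.5 CPM at the lower doses (log2 fold change 0.58, SE 0.15, edgeR FDR = 0.0249). Without A16 its value was still 0.58, at an FDR of 0.163, and with the covariate it was 0.73, at an FDR of 0.344. *Tns2* (−0.81), *Zyx* (−0.33) and *Parvb* (0.57) had edgeR FDRs of 0.0515, 0.0528 and 0.0783, and were at −0.44, −0.19 and 0.13 with FDRs of 0.438, 0.443 and 0.845 without A16. With the covariate they were −1.26, −0.39 and 1.05, with FDRs of 0.279, 0.45 and 0.256. Without A18, *Tns2* and *Zyx* had FDRs of 0.209 and 0.109, without A26 *Zyx* had 0.102, and without any 1 of 6 libraries of the lower doses (A19, A20, A22, A23, A25 or A26) *Parvb* had 0.112 to 0.136. The same 27 genes gave 0 calls with the 4 doses together at 6 h and at 24 h in edgeR, with 2 and 0 at an unadjusted p below 0.05, beside 10.3% and 6.73% of all genes.

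The pattern over libraries was compared with the mean of the 10 genes, each as log2 CPM centred on its own mean. The 5 genes most like it over the 30 libraries were *Nus1* (Pearson r = 0.88), *Sdc4* (0.88), *Esd* (0.86), *Gch1* (0.86) and *Sema7a* (0.85), with r between 0.81 and 0.87 without A16. Among the 10 genes themselves, r was 0.70 for *Itga6* with *Lamc1*, −0.78 for *Itga6* with *Itgb5* and −0.64 for *Itgb5* with *Lamc1* over 30 libraries. These values describe libraries that share times and doses, so each holds the difference between 6 h and 24 h.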

How the data were processed

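Libraries were made with a QuantSeq 3′ kit from RNA of trypsinized cells. The authors trimmed reads with Flexbar, mapped them with STAR 2.7.5c to GRCm39 and counted them per Ensembl gene with HTSeq-count 1.99.2. The deposited values are raw counts per gene, 1 table per library. The summary lines of each table gave the share of reads outside genes and were left out of gene counts.

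Groups came from the labels. The analysis used edgeR 4.0.16 under R 4.3.3 (filterByExpr, TMM normalization, quasi-likelihood F-test with Benjamini-Hochberg adjustment, FDR below 0.1), as 15 libraries per time (12012 genes at 6 h, 12118 at 24 h) or all 30 (12790 genes). Each SE was the log2 fold change over the square root of F. Alternatives were DESeq2 1.42.0, RLE normalization, no filter, a covariate for the share outside genes, only the 6 libraries compared, and each library left out. The slope over log2 dose, with and without A16, was added after the values were seen. The steps were tested on simulated data. The genes, the lists and the contrast of 3 µM with the 3 lower doses were chosen with earlier results of these data known. The named genes of other lists are those called in any comparison, at most 6 per list by smallest p, and the 3 most abundant per list. Gene symbols and coordinates are those of GENCODE M21 on GRCm38, older than the assembly of the counts. Depth was between 1839621 and 4420675 reads on genes. The strand setting of the counting is not given in the sources used here. One gene that the naming rule selects is not reported here.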

Additional observations from a re-analysis of the deposited data

Results flagged for a closer look

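The change of *Itga1* with CBD differed between 24 h and 6 h, by a test of the difference itself (−1.44 on the log2 scale, SE 0.32, edgeR FDR = 0.0656). At 6 h the vehicle was at 6.94 ± 2.51 CPM (SD, n = 3) and the CBD libraries at 17.3 ± 5.36 CPM (SD, n = 12). At 24 h the vehicle was at 28.1 ± 3.94 CPM (SD, n = 3) and the CBD libraries at 27.2 ± 4.46 CPM (SD, n = 12). The call was lost when any 1 of 10 of the 30 libraries was left out, namely A2, A3, A4, A5, A11, A24, A25, A28, A29 or A30, with FDRs between 0.1 and 0.355. It was also lost once a covariate for the share outside genes was added (−1.27, FDR 0.118). Groups of 3 libraries were not tested for single outlying values.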

How the results depend on the processing

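No value of the 10 genes that was called changed its direction under any alternative, and of 2783 comparisons of uncalled values with an alternative, 94 changed sign. With a covariate for the share outside genes, the number of the 10 genes called was 1 for 0.325 µM at 6 h (*Itga6*), 2 for 1.5 µM at 6 h (*Itga6*, *Lamc1*), 1 for 3 µM at 6 h (*Itgb5*), 2 for the 4 doses together at 6 h (*Itga6*, *Lamc1*) and 0 for 3 µM against the lower doses at 24 h. Over all genes of 6 h, the covariate raised the calls from 24 to 322 at 0.325 µM and from 12 to 154 at 1.5 µM. With the doses together they rose from 90 to 329, and at 3 µM they were no more than 92. DESeq2 called 2 for 1.5 µM and 1 for 3 µM at 6 h, and 1 among the doses at 24 h. With no filter on low counts, 0 were called with the doses together at 6 h and 3 among the doses at 24 h (*Itga6*, *Itgb1*, *Itgb5*). The slope over log2 dose called 1 at 24 h. The cause of these differences was not tested.

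With each library left out in turn, the number called was 0 to 2 with the doses together at 6 h, 0 to 4 among the doses at 24 h and 0 to 4 at 3 µM against the lower doses at 24 h. The 2 calls at 6 h were without A13, the 4 among the doses at 24 h were without A17, and 1 was called without A27. For time in vehicle it was 4 or 5.

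Counts over all genes moved by over 1.5 times in several comparisons. For the doses together they were 90 at 6 h (51 to 304 with 1 library left out, the highest without A3, and 329 with the covariate). At 24 h they were 13 (1 to 47 with 1 library left out, and 0 with the covariate). For 3 µM against the lower doses at 24 h the count was 1275, 68 without A16, 2303 without A17 and 30 with the covariate. Single doses gave 6 to 24 calls at 6 h and 1 to 10 at 24 h, against 0 to 322 and 0 to 116 under the alternatives that kept all libraries of the groups compared, and 0 to 173 and 1 to 288 with 1 library left out. Among the doses at 24 h it was 234 (1 with the covariate, 783 with no filter, 9 to 1085 with 1 library left out, 379 for the slope and 35 for the slope without A16), and for the change between the times 30 (87 with no filter, 2 to 45 with 1 library left out).

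No paired analysis was possible because the labels give no replicate numbers shared between groups. *Itga3*, *Itga5* and *Lama5*, with medians below 30 CPM, rested on as few as 25 reads in a library. With 3 libraries a group, the SE of their single-dose changes was near 0.3 on the log2 scale. Some named genes of the other lists rested on fewer reads. The lowest count in a library was 1 for *Itga4*, 3 for *Itga2b*, 5 for *Itga8* and 13 for *Itga1*.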
